A study of Mus musculus with 64 samples.

Results

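Ageing was examined in omental adipose tissue, the visceral fat depot of the greater omentum, of wild-type (WT) mice. The members were the WT omental adipose libraries of 5 and 20 months, chosen by tissue, genotype and age in the labels, and they made up 11 of the 64 RNA sequencing libraries of the series. The series compared WT mice with mice whose Myc gene was excised throughout the body (MycKO), in omental adipose tissue, liver and skeletal muscle. The 6 libraries of 5 months and the 5 libraries of 20 months came from mice of strain C57/B6, each labelled as given tamoxifen by injection around weaning, the agent that switches on the Cre recombinase of the MycKO mice. Tamoxifen treatment was therefore common to both ages. The MycKO mice used for comparison carried a tamoxifen-activated Cre at the ROSA26 locus and Myc alleles that the Cre removes, on a mixed B6 and 129 background, and were sampled at the same ages in adipose tissue (11 libraries). WT liver and WT skeletal muscle had 11 libraries each. The codes of the older mice carry the number of another age, and the 20 months of the other labels is used here.

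White adipocytes store triglyceride in a single large droplet and release hormones such as leptin, adiponectin and resistin. Visceral depots also hold stromal, endothelial and mesothelial cells, and the omentum contains clusters of lymphocytes known as milky spots. With age such depots are known to change in lipid handling, in hormone output and in their immune cells. In bulk tissue, fewer cells of a type and less RNA per cell cannot be told apart.

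Each WT adipose library held 15.9 to 24.6 M reads on genes, with 19206 to 20832 genes detected. Not all young libraries were alike. The libraries of mice W5F5041 and W5F5042 had Xist (432 and 287 CPM) and no reads of the Y-linked transcripts, while the other 4 young libraries and the 5 old ones had Y-linked transcripts at 84.9 to 175 CPM, so sex was not balanced between the ages. CPM is the deposited signal per gene, scaled by the authors for each library. The young library W5F5299 had 1138 CPM of summed epididymis and male tract markers and the young library W5F5005 had 53.4 CPM, against 6.84 to 19.5 CPM in the old libraries. These 2 are called epididymis-positive, by a cutoff of 50 CPM. Summed skeletal muscle markers reached 1540 CPM in the young library W5F5277, against 149 to 249 CPM in the old libraries. Without mouse W5F5277 2253 genes were called, against 2650 with all 11 libraries. Many counts of list members moved with single libraries, and the larger moves are given beside them.

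At 20 months 2650 of 13505 genes tested (19.6%) passed an adjusted p of 0.05 in limma on log2(CPM + 1), 1566 of them higher (11.6%) and 1084 lower (8.03%). Of the called genes, 499 rose by more than 1 and 171 fell by more than 1 on the log2 scale. The 2 age groups did not overlap in 1618 genes (12%), of which 1451 were called. Without the 2 Xist-positive libraries 797 genes were called higher (5.9%) and 449 lower (3.32%), and 1125 of the 2650 calls were also made there, with all 2650 in the same direction. The balance of directions depended on the test: 59.1% of calls were higher in limma, against 47.5% with edgeR and 44.1% with DESeq2 on the recovered reads. The codes name separate mice, and p-values measure the spread between these mice.

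The fold change also followed transcript length. The median log2 fold change was -0.54 for the 217 genes whose longest transcript is at most 800 nt and 0.39 for the 1914 genes above 6000 nt. Across the 12936 genes with a length, Spearman's rho between length and fold change was 0.44, a description across genes that share the same libraries. In the libraries, the median deviation of transcripts above 6000 nt minus that of transcripts up to 1500 nt was 0.29 to 0.49 at 20 months and -0.89 to -0.18 in 5 of the young libraries, while the young library W5F5299 had 0.42. With this trend taken out of each library, 840 of 12936 genes were called higher (6.49%) and 780 lower (6.03%), and 1262 of the 2650 calls were also made. Genes without a length could not be called there. An unadjusted fit of the genes with a length had 2537 calls. The part of transcript length in the age effect was not tested, and length-adjusted values are given beside the groups it touches.

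**Figure D1:**
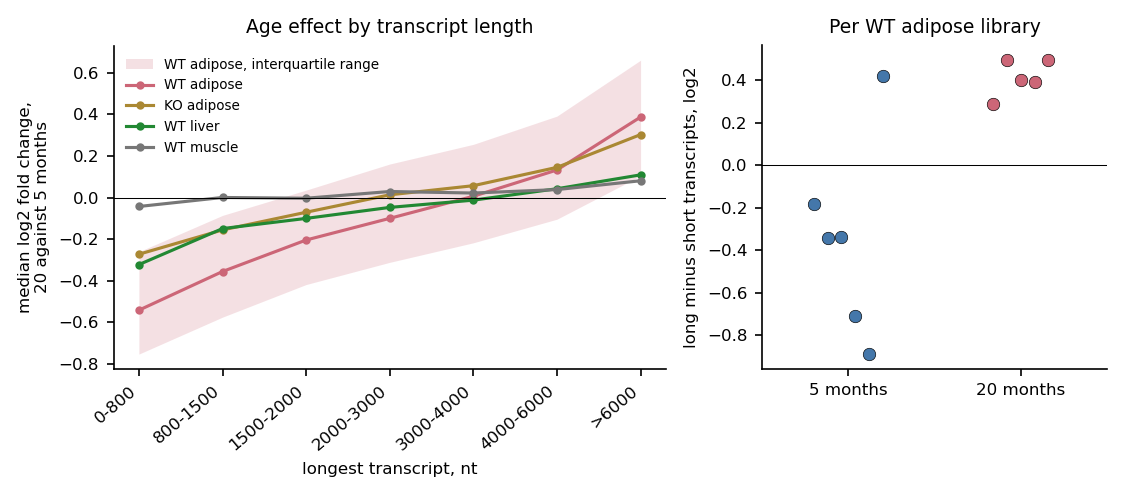
Left, the median log2 fold change of 20 against 5 months for genes grouped by the length of their longest transcript, in 4 sets of libraries, with the interquartile range of genes shaded for WT adipose tissue. Right, for each WT adipose library, the median log2 deviation of transcripts above 6000 nt minus that of transcripts up to 1500 nt. The WT adipose medians run from -0.54 to 0.39, and 1 young library lies among the old ones at 0.42.

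Adipocyte genes were read to see whether each library held fat. They cannot tell 1 fat depot from another, and the depot of each library was not tested. Fabp4, the fatty acid carrier of adipocytes, was at 8535, 5429, 6483, 7784 and 7678 CPM in the 5 old libraries (mice W18F21 to W18F25 in this order, as in every such list of values) and 5721 to 17192 (median 8638) in the young ones. Adiponectin (Adipoq), the insulin-sensitising adipocyte hormone, was at 1636, 1072, 1477, 1589 and 1548 CPM at 20 months and 1447 to 2951 (median 2026) at 5 months. Both were abundant in all 11 libraries, their age groups overlapped, and neither passed the test (log2 fold change -0.35 ± 0.37, adjusted p = 0.524 for Fabp4; log2 fold change -0.49 ± 0.24, adjusted p = 0.15 for Adipoq). Here and below the value after ± is the standard error of the log2 fold change of 20 against 5 months. Of 25 genes of adipocyte differentiation and identity, 1 was called higher and 4 lower, with a median log2 fold change of -0.26 against 0.02 over all genes tested (where 11.6% were called higher and 8.03% lower). With 1 library left out, 0 to 3 were called higher and 2 to 4 lower.

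Slc5a7, the choline transporter of cholinergic cells, showed the largest rise. It lies on chromosome 17 from 54273590 to 54299038 (RefSeq, GRCm38.p6). At 20 months it stood at 72.6, 27.7, 51.2, 86.5 and 59.2 CPM, and at 5 months it was 0 to 1.88 (median 0.232). The old libraries were all above the young ones (log2 fold change 5.25 ± 0.36, adjusted p = 6.57e-06). Of 16 tested genes of choline and acetylcholine biology 1 was called higher, Slc5a7 itself, and 1 lower (0 to 3 lower with 1 library left out). Each is 6.25% of the list, below the 11.6% called higher and 8.03% called lower over all genes tested.

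Secreted and imprinted genes were among the largest rises. Sfrp5, a secreted Wnt inhibitor of adipocytes, was at 424, 322, 470.3, 518 and 404 CPM at 20 months and 1.19 to 125 (median 40.6) at 5 months. Mest, an imprinted gene tied to fat expansion, was at 483, 355, 629, 888 and 495 CPM at 20 months and 4.04 to 189.8 (median 34) at 5 months. The young libraries ranged widely in both genes and none reached the lowest old library (log2 fold change 4.62 ± 1.05, adjusted p = 0.0141 for Sfrp5; log2 fold change 4.43 ± 0.87, adjusted p = 0.00753 for Mest). Leptin (Lep), the satiety hormone released in proportion to fat mass, was at 1284, 922, 2012, 1163 and 1303 CPM in the old and 18.2 to 833 (median 306) in the young libraries. Its groups did not overlap (log2 fold change 2.91 ± 0.91, adjusted p = 0.0431), and without the Xist-positive libraries its adjusted p was 0.133. Peg10, a paternally expressed gene of retrotransposon origin, was at 154, 105, 254, 117 and 193 CPM at 20 months and 7.35 to 23.7 (median 11.1) at 5 months (log2 fold change 3.51 ± 0.32, adjusted p = 6.6e-05). H19, a maternally expressed noncoding RNA, went the other way, from 0.559 to 7.28 (median 1.72) CPM at 5 months to 0.0612, 0.175, 0.392, 0.25 and 0.151 CPM at 20 months (log2 fold change -1.39 ± 0.37, adjusted p = 0.0245). Of 25 imprinted genes tested, 7 were called higher (28%, against 11.6% over all genes) and 2 lower (8%, against 8.03%), with a median of 0.55. Length-adjusted values gave 3 higher with a median of 0.24, the fit without the Xist-positive libraries gave 4, and leaving out mouse W18F22, W18F24 or W18F25 gave 3.

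Other large rises came from genes of varied roles. Ccn5, a matricellular protein of the CCN family, was at 483, 158, 233, 215 and 287 CPM at 20 months and 2.42 to 32.5 (median 17.1) at 5 months (log2 fold change 4.09 ± 0.51, adjusted p = 0.000866). Tfr2, a transferrin receptor best known from liver, was at 21.9, 29.2, 35.4, 31.7 and 21.2 CPM at 20 months and 0.596 to 2.01 (median 0.855) at 5 months (log2 fold change 3.84 ± 0.20, adjusted p = 8.9e-07). Synpo2, an actin-binding protein of muscle cells, was at 408, 269, 361, 309.8 and 395 CPM in the old and 22.5 to 54.9 (median 27.6) in the young libraries (log2 fold change 3.44 ± 0.22, adjusted p = 5.28e-06). In all these genes every old library lay above every young one. The remaining genes among the 15 largest rises were Cacna1e, a voltage-gated calcium channel subunit (log2 fold change 3.54), Dusp9, a MAP kinase phosphatase (3.41), Dock8, a guanine nucleotide exchange factor of leukocytes (3.17), Lctl (3.03) and Sycp3, a protein of the meiotic chromosome axis (2.94). Gm7592, Gm15433 and C130026I21Rik rose by 3.74, 3.56 and 3.15. They lie near each other on chromosome 1, where reads of near-identical copies could have been split, so their values are uncertain.

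**Figure D2:**
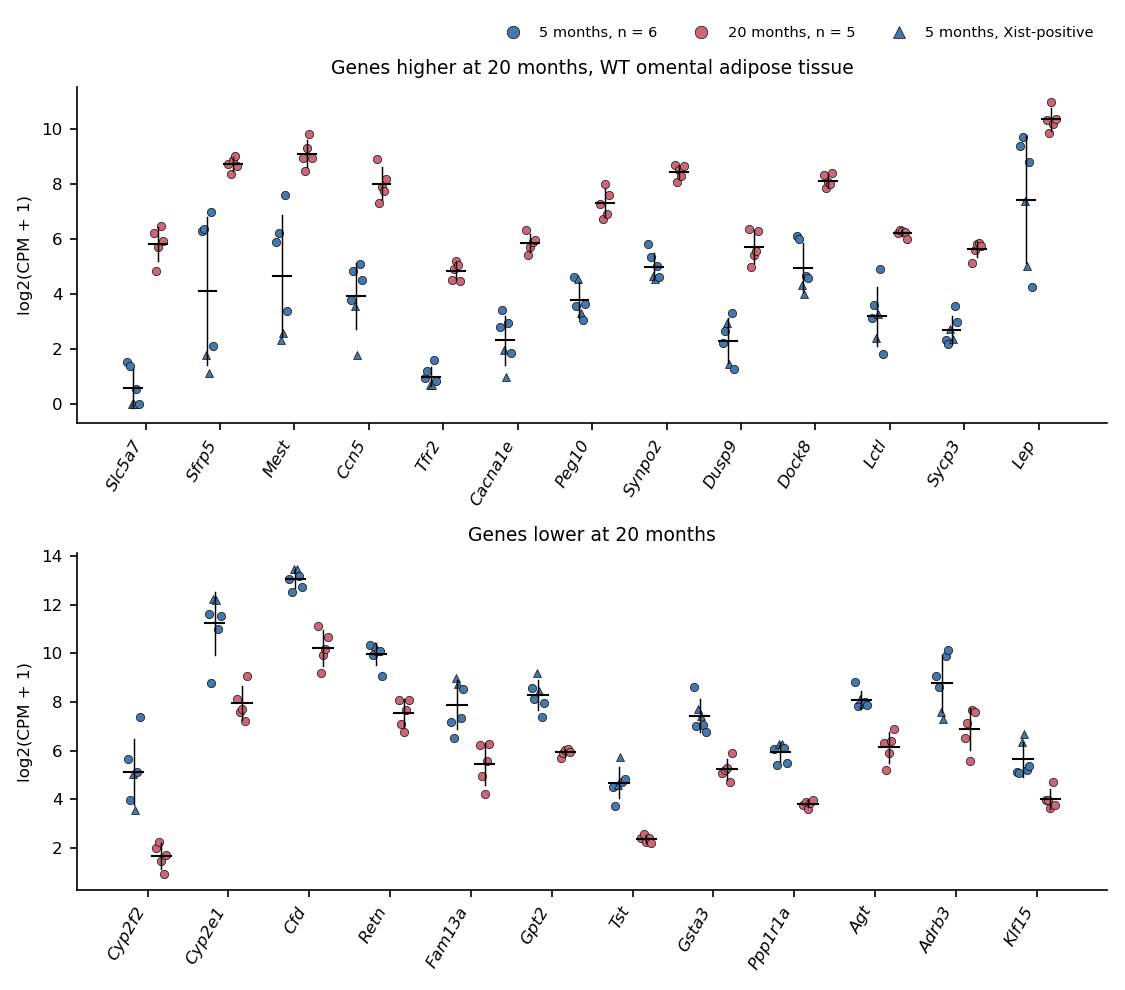
Expression, as log2(CPM + 1), of 13 genes higher and 12 genes lower at 20 months in every WT adipose library, with the mean and SD of each age. Triangles are the 2 Xist-positive young libraries. Slc5a7 was at 1.88 CPM or less at 5 months and at 27.7 CPM or more at 20 months.

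Among the secreted factors, adipsin and resistin fell while leptin and Sfrp5 rose. Adipsin (Cfd), the complement factor D made by adipocytes, was at 2230.1, 587, 974, 1162 and 1641 CPM at 20 months and 5870.0 to 11384 (median 8754) at 5 months. Resistin (Retn) was at 268, 134, 109, 205 and 267 CPM at 20 months and 537 to 1304 (median 1092) at 5 months, and angiotensinogen (Agt), the precursor of angiotensin, at 79.3, 35.5, 58.6, 84.4 and 117 CPM and 225 to 448 (median 247). No old library reached a young one in any of the 3 genes (log2 fold change -2.83 ± 0.36, adjusted p = 0.000952 for Cfd; log2 fold change -2.43 ± 0.29, adjusted p = 0.000573 for Retn; log2 fold change -1.95 ± 0.28, adjusted p = 0.00163 for Agt). Of 24 adipokines and secreted factors tested, 5 were called higher (20.8%, against 11.6% over all genes) and 4 lower (16.7%, against 8.03%). The higher calls were 2 without the Xist-positive libraries and 2 to 5 with 1 library left out, with 2 in each fit without mouse W5F5042 or an old mouse.

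Genes of xenobiotic metabolism were among the falls. Cyp2f2, a cytochrome P450 monooxygenase, was at 3.06, 3.74, 1.75, 0.888 and 2.27 CPM at 20 months and 11 to 165 (median 33.2) at 5 months (log2 fold change -3.45 ± 0.56, adjusted p = 0.00316). Cyp2e1, the ethanol-inducible P450, was at 281, 194, 211, 148 and 538 CPM at 20 months and 439.6 to 4859 (median 3055) at 5 months, and 1 of the 5 old libraries lay within the young range (log2 fold change -3.27 ± 0.57, adjusted p = 0.00421). Gsta3, a glutathione transferase, was at 33.2, 35.4, 37.7, 24.9 and 59.1 CPM and 109 to 396 (median 151) (log2 fold change -2.20 ± 0.31, adjusted p = 0.00164). Of 35 tested genes of xenobiotic and retinoid metabolism, 9 were called lower and 5 higher, with a median of -0.38, and without mouse W18F23 3 were called higher. Adrb3, the adipocyte beta-3 adrenergic receptor, was at 92, 139.7, 46.6, 199.7 and 194 CPM and 156 to 1129 (median 459), with overlapping groups (log2 fold change -1.86 ± 0.55, adjusted p = 0.0364), while Adra1a, an alpha-1 receptor, rose from 6.4 to 14.8 (median 7.92) CPM to 20.9, 18.2, 23.3, 23.8 and 30.7 CPM (log2 fold change 1.33 ± 0.19, adjusted p = 0.002). The Adrb3 call was lost without the epididymis-positive libraries (adjusted p = 0.0846) and on length-adjusted values (0.0549), and was kept in 5 of the 11 fits that left out 1 library. Of 34 hormone and neurotransmitter receptors tested, 2 were called higher and 1 lower, and leaving out 1 library gave 1 to 3 higher and 0 to 2 lower. These shares, 5.88% and 2.94%, were below the 11.6% and 8.03% over all genes tested. For the xenobiotic list the shares were 14.3% higher and 25.7% lower.

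Further falls came from metabolic and structural genes. Gpt2, a mitochondrial alanine transaminase, was at 50.5, 59.6, 63.3, 66.9 and 60.1 CPM at 20 months and 168 to 578 (median 312) at 5 months (log2 fold change -2.35 ± 0.25, adjusted p = 0.000276). Ppp1r1a, an inhibitor of protein phosphatase 1, was at 12.4, 14, 11.3, 13.5 and 14.5 CPM and 41.8 to 75.6 (median 66.5) (log2 fold change -2.11 ± 0.17, adjusted p = 2.55e-05). The old libraries of both genes lay close together and below every young one. Fam13a fell by 2.43, the thiosulfate sulfurtransferase Tst by 2.32, the matrix protein Spon1 by 2.11, the amino acid transporter Slc43a1 by 2.07 and the tropomyosin Tpm2 by 1.92 on the log2 scale. Gm5460 fell by 2.23, and its call was kept in 4 of the 11 fits that left out 1 library. Plac9a had no read in any old library, which allows up to 0.114 CPM in the shallowest of them, and 0.529 to 22.7 (median 8.08) CPM at 5 months. It has a near-identical copy, Plac9b, so its value is uncertain.

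Lipid synthesis changed in a few enzymes. Gpam, which starts triglyceride assembly, was at 83.8, 69.4, 62.6, 106 and 94.6 CPM at 20 months and 134 to 494 (median 263) at 5 months (log2 fold change -1.55 ± 0.34, adjusted p = 0.0119). Dgat1, which completes it, was at 51.4, 62.7, 57.5, 126 and 56.5 CPM and 131 to 263 (median 214) (log2 fold change -1.54 ± 0.25, adjusted p = 0.00345). Bscl2 (seipin), which shapes lipid droplets, was at 100.2, 79.8, 89.1, 107 and 102 CPM and 147 to 224 (median 207) (log2 fold change -1.0 ± 0.14, adjusted p = 0.00133). In these 3 genes all old libraries were below all young ones. Of 24 genes of cholesterol synthesis 1 was called higher, the early enzyme Hmgcs1 (log2 fold change 1.06 ± 0.24, adjusted p = 0.0131), and 3 lower, led by the kinase Pmvk (log2 fold change -1.64 ± 0.29, adjusted p = 0.00444). Of 27 genes of fatty acid and triglyceride synthesis, 4 were called lower (Aacs, Gpam, Dgat1 and Tkt), and 19 of the 27 had a negative log2 fold change. The desaturase Scd1 and the fatty acid synthase Fasn, the most abundant of them, had overlapping groups (log2 fold change 0.20 ± 0.50, adjusted p = 0.802 for Scd1; log2 fold change -0.70 ± 0.70, adjusted p = 0.496 for Fasn). Cpt1a, which admits fatty acids to mitochondria, was at 129, 138, 154, 129.8 and 143 CPM at 20 months and 59.4 to 89.8 (median 67.3) at 5 months (log2 fold change 0.95 ± 0.13, adjusted p = 0.00135). Its muscle-type relative Cpt1b was at 6.18, 8.69, 6.35, 14.9 and 5.56 CPM and 1.28 to 5.07 (median 2.21) (log2 fold change 1.41 ± 0.28, adjusted p = 0.00799). Of 24 thermogenic adipocyte genes tested (of 30 in the list), 5 were called higher, among them Otop1 (2.08, 3.77, 3.01, 6.99 and 3.29 CPM against 0.0412 to 0.668 (median 0.117)) and Pm20d1 (6.82, 8.72, 9.52, 8.3 and 7.04 CPM against 0.835 to 6.58 (median 2.13)). Testing needed more than 1 CPM in 5 or more libraries, and Otop1 met this through the 5 old libraries alone. The 6 members not tested are outside the share of this list, which is thus limited by the filter. Irs1, an adaptor of the insulin receptor, was at 15.1, 20.6, 23.8, 34.3 and 20.9 CPM at 20 months and 38.6 to 89.3 (median 47.4) at 5 months (log2 fold change -1.17 ± 0.23, adjusted p = 0.00799), and 2 of 31 genes of insulin, IGF and growth hormone signalling were called in each direction (0 to 3 higher and 1 to 4 lower with 1 library left out). Without the Xist-positive libraries the thermogenic list had 3 higher calls. With 1 library left out, cholesterol synthesis had 1 to 5 calls in each direction. Shares called higher were 4.17% for cholesterol synthesis, 20.8% for thermogenic and 6.45% for insulin signalling genes, against 11.6% over all genes tested. Shares called lower were 12.5% for cholesterol synthesis, 14.8% for fatty acid and triglyceride synthesis and 6.45% for insulin signalling genes, against 8.03%.

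The nuclear genes of oxidative phosphorylation encode subunits of the respiratory complexes and the ATP synthase, and many are short transcripts. Promoters of several such genes are known to hold sites for the factor NRF1. Among the promoter windows of RefSeq (GRCm38.p6), 250 bases upstream of the gene start were searched on both strands for the letters CGCANGCG, the core of the NRF1 motif. The letters were chosen after the data were seen. Of the 62 tested genes of this list with a window, 19 held a match (30.6%), against 15.4% of the 10732 tested genes with a window and 7.65% of all genes with a window. Of the 39 called lower with a window, 13 held one (33.3%). A first, stricter search also asked for a G before and a C after these letters and gave lower shares, with 13 of the 62 (21%), 8.82% of the tested genes and 4.23% of all genes. In that search the genes called lower held a match in 7 of 39 (17.9%), below the share of the whole list. A match is a description of the letters and not a site. The windows of the 3 genes with the largest falls among those called lower with a match follow, to show the letters that matched, which are in capitals.
Atp5k, chr5:108434421-108434468, minus strand: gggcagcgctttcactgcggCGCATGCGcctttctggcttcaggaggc
Ndufa5, chr6:24527688-24527735, minus strand: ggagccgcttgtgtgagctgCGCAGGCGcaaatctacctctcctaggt
Atp5l, chr9:44920956-44920992, minus strand: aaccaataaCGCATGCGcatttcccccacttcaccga

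Atp5k, a subunit of the ATP synthase, was at 18.3, 10.6, 11.4, 14.7 and 13.3 CPM at 20 months and 17.9 to 57.6 (median 52.1) at 5 months. Cox7c, of cytochrome c oxidase, was at 55.9, 42, 46.5, 51.1 and 46.3 CPM and 58 to 203 (median 126), and Uqcrb, of complex III, at 42.5, 31.9, 36.9, 38 and 35.7 CPM and 49.6 to 131 (median 78). The old libraries were lowest, except that the young library W5F5299 reached them in Atp5k (log2 fold change -1.66 ± 0.27, adjusted p = 0.00344 for Atp5k; log2 fold change -1.31 ± 0.25, adjusted p = 0.00642 for Cox7c; log2 fold change -1.13 ± 0.20, adjusted p = 0.00502 for Uqcrb). Of 74 subunit genes tested, 46 were called lower (62.2%, against 8.03% over all genes tested). All 74 had a negative log2 fold change, with a median of -0.63. Of the 1121 genes with transcripts above 800 and up to 1500 nt, 23.4% were called lower. The abundant subunits Atp5b and Atp5a1 had log2 fold change -0.42 ± 0.20, adjusted p = 0.144 and log2 fold change -0.23 ± 0.17, adjusted p = 0.327. Among length-adjusted values 24 were called lower, with a median of -0.32, and without the Xist-positive libraries 15. Over all genes, 6.03% were called lower on length-adjusted values and 3.32% without the Xist-positive libraries. Leaving out 1 library gave 20 (mouse W18F22) to 68 calls (mouse W5F5299).

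The cytosolic ribosomal proteins, which build the ribosome and are also short transcripts, were read next. Rps29 was at 73.4, 62.4, 59, 59.4 and 55 CPM at 20 months and 74.4 to 309.8 (median 194) at 5 months (log2 fold change -1.55 ± 0.29, adjusted p = 0.00641), and Rpl38 at 63.4, 48.8, 49.6, 48.7 and 46.3 CPM and 65.4 to 268 (median 149) (log2 fold change -1.45 ± 0.29, adjusted p = 0.0082). Of 79 genes, 31 were called lower (39.2%, against 8.03% over all genes tested). All 79 had a negative log2 fold change, with a median of -0.70. Their longest transcripts had a median of 1059 nt, against 3452 nt over all genes tested. Length-adjusted values left 5 calls with a median of -0.36. These 5 of 79 were near the 6.03% called lower over all genes on length-adjusted values, so there the list did not stand out in calls. Leaving out mouse W18F23 left 4 and leaving out mouse W5F5299 gave 75. Leaving out the Xist-positive libraries left 9, where 3.32% were called lower over all genes. Of 50 genes of ribosome biogenesis, such as Nhp2 (log2 fold change -0.90 ± 0.18, adjusted p = 0.00788), 18 were called lower (36%) and 1 higher (2%). Over all genes tested 8.03% were called lower and 11.6% higher. Length-adjusted values left 8 lower calls, leaving out the Xist-positive libraries left 2 and leaving out mouse W18F25 left 1.

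Many lymphocyte genes were higher at 20 months. Ms4a1 (CD20), a B cell surface protein, was at 10.4, 36.7, 8.26, 6.08 and 8.29 CPM at 20 months and 0.352 to 1.96 (median 1.08) at 5 months (log2 fold change 2.59 ± 0.39, adjusted p = 0.00224). Cd22, an inhibitory receptor of B cells, was at 14.6, 57.9, 12.9, 6.22 and 14.3 CPM and 1.4 to 5.25 (median 2.62) (log2 fold change 2.18 ± 0.44, adjusted p = 0.00807). Pax5, the factor that fixes B cell identity, was at 5.72, 22.1, 3.63, 2.28 and 3.94 CPM and 0.141 to 1.47 (median 0.196) (log2 fold change 2.26 ± 0.42, adjusted p = 0.00604). The old libraries were all above the young ones, and mouse W18F22 was far above the other old mice. Of 27 B and plasma cell genes tested (of 34 in the list), 19 were called higher (70.4%, against 11.6% over all genes tested). A positive log2 fold change was seen in 25, with a median of 1.27. Testing needed more than 1 CPM in 5 or more libraries, and the old group has 5. A scarce gene could thus be tested through the old libraries alone, and the 7 members not tested are outside the share. The lowest count with 1 library left out was 13, without the Xist-positive libraries it was 11, without the Xist- and epididymis-positive libraries it was 5, and length-adjusted values gave 17. Without both kinds only mice W5F5006 and W5F5277 remain at 5 months. In that fit 1835 of 13505 genes were called higher, so 5 of 27 was near the share over all genes. Over all genes 5.9% were called higher without the Xist-positive libraries and 6.49% on length-adjusted values. The B and plasma cell markers summed to 472 to 1004 CPM at 20 months and 340 to 738 CPM at 5 months, with overlap.

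T cell genes were also higher, at low levels. Cd8a, the co-receptor of cytotoxic T cells, was at 6.57, 13.2, 3.08, 2.11 and 1.89 CPM at 20 months and 0.12 to 2.08 (median 0.389) at 5 months, with overlapping groups (log2 fold change 1.74 ± 0.42, adjusted p = 0.0174). Il7r, the receptor for interleukin 7, was at 22.1, 44.6, 34.9, 15.4 and 20.8 CPM and 3.87 to 10.2 (median 7.84) (log2 fold change 1.70 ± 0.28, adjusted p = 0.00367). Cd28, a costimulatory receptor, was at 5.35, 7.84, 4.29, 2.97 and 3.75 CPM and 0.618 to 2.72 (median 1.29) (log2 fold change 1.26 ± 0.25, adjusted p = 0.00799). The T and NK cell markers summed to 76.6 to 230 CPM at 20 months and 35.1 to 63.8 CPM at 5 months, without overlap. Of 21 tested (of 35 in the list), 14 were called higher (66.7%, against 11.6% over all genes tested), with a median of 1.02. The limit of the filter given for B cell genes holds here too, with 14 members not tested. The count was 7 without mouse W18F22, 4 without the Xist-positive libraries and 4 without both the Xist- and epididymis-positive ones. Over all genes 5.9% were called higher without the Xist-positive libraries, and 1835 of 13505 without both kinds. Cd8a was among the calls lost without the Xist-positive libraries (adjusted p = 0.0694). Of genes that guide lymphocytes, the chemokine receptor Cxcr5 was at 4.68, 13.6, 3.06, 2.41 and 2.27 CPM against 0.0798 to 1.39 (median 0.925) and lymphotoxin beta (Ltb) was at 11.8, 23.6, 6.95, 5.05 and 5.83 CPM against 1.24 to 4.22 (median 2.48), both without overlap. Of 40 cytokines, chemokines and receptors 7 were called higher, and 4 of 16 genes of MHC class II presentation, including H2-Ob (log2 fold change 1.84 ± 0.37, adjusted p = 0.00801) and Ciita (log2 fold change 1.17 ± 0.37, adjusted p = 0.0453), though the abundant Cd74 was not (log2 fold change 0.08 ± 0.28, adjusted p = 0.863). Without the Xist-positive libraries these counts were 4 and 1, with Ciita at an adjusted p of 0.138, and leaving out 1 library gave 4 to 8 and 1 to 4. With all libraries the shares called higher were 17.5% and 25%, against 11.6% over all genes tested.

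**Figure D3:**
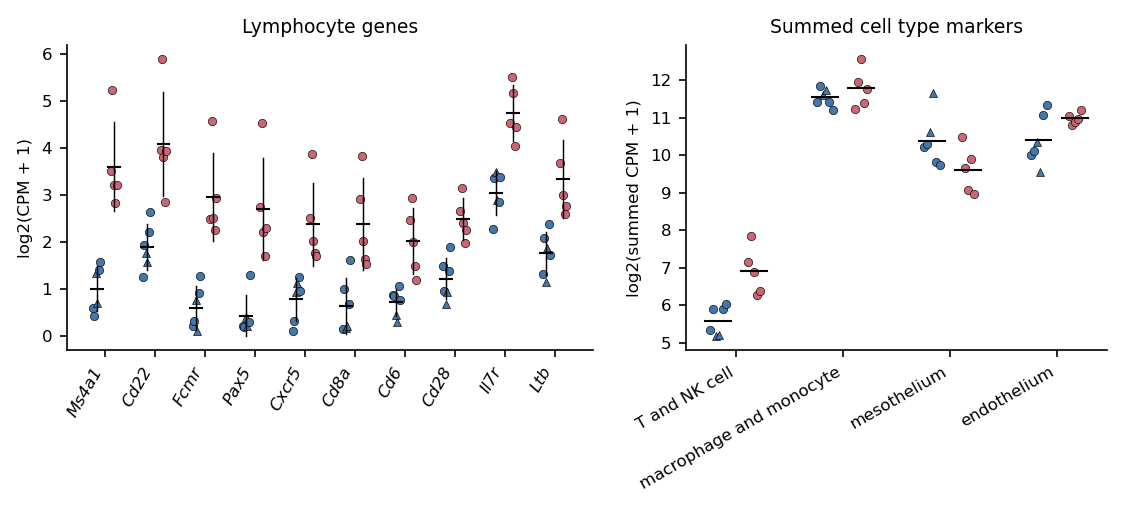
Left, log2(CPM + 1) of 10 lymphocyte genes in each WT adipose library, with mean and SD. Right, log2 of the summed CPM of 4 marker lists, with the mean as a bar. Blue is 5 months, red is 20 months and triangles are Xist-positive. T and NK cell sums lie at 35.1 to 63.8 CPM at 5 months and 76.6 to 230 CPM at 20 months.

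Few macrophage markers passed the test. Gpnmb, a lysosomal protein of lipid-laden macrophages, was at 157, 466, 1041, 274 and 296 CPM at 20 months and 58.5 to 237 (median 133) at 5 months (log2 fold change 1.49 ± 0.45, adjusted p = 0.0374), highest in mouse W18F23. Itgax (CD11c) was at 18.4, 46.4, 106, 32.3 and 27 CPM and 2.98 to 30.8 (median 9.94) (log2 fold change 1.78 ± 0.51, adjusted p = 0.0317). In both genes the age groups overlapped. Of 30 macrophage and monocyte markers, 3 were called higher (Itgax, Gpnmb and Mpeg1) and Cd14 was called lower. These shares, 10% and 3.33%, were below the 11.6% and 8.03% over all genes tested. All 4 calls were lost without the Xist-positive libraries (adjusted p = 0.104 for Itgax, 0.0817 for Gpnmb), and with 1 library left out 0 to 5 were called higher, with 0 in 6 of the 11 fits. Lyz2, the most abundant, did not pass (log2 fold change 0.10 ± 0.21, adjusted p = 0.768). The markers summed to 2407 to 6027 CPM at 20 months and 2377 to 3675 CPM at 5 months. Mmp12, a macrophage elastase, was at 74.4, 158, 379, 120.2 and 131 CPM at 20 months and 28.6 to 64.2 (median 37.8) at 5 months (log2 fold change 1.90 ± 0.34, adjusted p = 0.005).

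Other cell types of the depot had smaller shares of called markers than the lymphocytes. Of 25 mesothelial markers, all had a negative log2 fold change and 5 were called lower, among them the keratins Krt19 (log2 fold change -1.85 ± 0.48, adjusted p = 0.0228), Krt18 and Krt8 (log2 fold change -1.58 ± 0.40, adjusted p = 0.0214). Without the Xist-positive libraries 0 were called lower and the median moved from -0.81 to -0.37, and the count was also 0 without mouse W18F23 or W18F25. Their sum was 498 to 1434 CPM at 20 months and 851 to 3250 CPM at 5 months. How much mesothelium each sample held was not tested. Of 24 endothelial markers 2 were called higher, Ptprb (log2 fold change 1.33 ± 0.40, adjusted p = 0.0382) and Nrp2 (log2 fold change 1.11 ± 0.25, adjusted p = 0.0128). Without mouse W5F5299 the endothelial count was 11 and without the epididymis-positive libraries 9, with 21 of the 24 above 0 in the fit of all libraries and a median of 0.54. The Ptprb call was lost without the Xist-positive libraries (adjusted p = 0.0709). Acta2, smooth muscle actin, was at 741, 381, 449, 349.6 and 568 CPM at 20 months and 121 to 207 (median 149.5) at 5 months (log2 fold change 1.61 ± 0.22, adjusted p = 0.00134). Of 18 pericyte and smooth muscle markers tested, 2 were called higher, Synpo2 and Acta2, and 1 lower, Des. These shares were 11.1% and 5.56%, so this list did not stand out from all genes tested. Its median was 0.12, and -0.10 without the Xist-positive libraries. Of 59 extracellular matrix genes 7 were called higher (11.9%) and 3 lower (5.08%), with 3 to 9 higher when 1 library was left out. Over all genes tested 11.6% were called higher and 8.03% lower, so the matrix list did not stand out. Adamts5, a proteoglycan-degrading protease, was at 498, 361, 513, 348 and 504 CPM and 91.8 to 368 (median 97.8) (log2 fold change 1.60 ± 0.38, adjusted p = 0.0159), and its adjusted p without the Xist-positive libraries was 0.0641. The abundant Sparc and Dcn, a secreted matrix protein and a proteoglycan, had log2 fold change 0.51 ± 0.33, adjusted p = 0.286 and log2 fold change -0.65 ± 0.43, adjusted p = 0.293. Of 32 Wnt genes 5 were called higher and 2 lower, with Sfrp5, the receptor Fzd4 and the feedback inhibitor Nkd1 (log2 fold change 1.11 ± 0.28, adjusted p = 0.0216) among the rises. The Wnt count of 5 was 2 without mouse W18F23 and 8 without mouse W5F5006, and the 2 lower calls were 0 without mouse W18F25. Of 38 positional factors 2 were called lower, Hoxc9 (log2 fold change -0.94 ± 0.23, adjusted p = 0.0186) and Hoxa5 (log2 fold change -0.75 ± 0.19, adjusted p = 0.0224), and 2 higher, Hoxb4 and Hoxd4, which were named after their values were seen. Hoxa5 had an adjusted p of 0.052 without the Xist-positive libraries, and leaving out 1 library gave 0 to 6 lower and 0 to 4 higher. Shares called higher were 8.33% for endothelial, 15.6% for Wnt and 5.26% for positional genes, near or below the 11.6% over all genes except for Wnt. Shares called lower were 20% for mesothelial, 6.25% for Wnt and 5.26% for positional genes, against 8.03%.

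Cell cycle arrest and stress genes were then read. Cdkn2a, which encodes the senescence-associated p16 and p19 proteins, was at 2.08, 2.69, 2.64, 2.19 and 2.04 CPM at 20 months and 0.264 to 1.44 (median 0.768) at 5 months. Its groups did not overlap and the levels were low (log2 fold change 0.91 ± 0.20, adjusted p = 0.0125). Cdkn2c, another cell cycle inhibitor, was at 18.3, 28, 30.7, 34.6 and 25.2 CPM and 42.6 to 126 (median 72.8), opposite in direction (log2 fold change -1.37 ± 0.29, adjusted p = 0.0111). Of 33 genes of cell cycle inhibition and senescence, 4 were called higher and 1 lower, with a median of -0.03. Of 30 p53 targets 6 were called higher and 1 lower, including Eda2r (log2 fold change 0.70 ± 0.16, adjusted p = 0.0157) and the cyclin Ccng1 (log2 fold change 0.68 ± 0.17, adjusted p = 0.0183). Of 48 interferon-response genes 7 were called higher, led by Parp14 (log2 fold change 0.81 ± 0.12, adjusted p = 0.00192), and 1 lower, Ifi27l2a (log2 fold change -0.93 ± 0.24, adjusted p = 0.022), whose transcript is short and whose length-adjusted p was 0.509. The p53 count of 6 was 2 without mouse W18F23. The interferon count of 7 was 1 without any 1 of the 5 old mice and 1 with all 22 adipose libraries in the fit. Shares called higher were 12.1% for senescence, 20% for p53 and 14.6% for interferon genes, against 11.6% over all genes tested. Shares called lower were 3.03%, 3.33% and 2.08%, against 8.03%. Myc itself was at 11.4, 13.2, 10.8, 8.1 and 16.3 CPM at 20 months and 11.2 to 22.8 (median 18.7) at 5 months and did not pass (log2 fold change -0.51 ± 0.22, adjusted p = 0.114).

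A few glucocorticoid-responsive genes fell. Klf15, a glucocorticoid-induced factor of adipocytes, was at 14.9, 14.7, 11.6, 25.4 and 12.6 CPM at 20 months and 32.8 to 103 (median 38) at 5 months (log2 fold change -1.62 ± 0.32, adjusted p = 0.00768). Per1, a clock gene also induced by glucocorticoids, was at 37.9, 46.1, 22, 21.9 and 43.5 CPM and 61.8 to 135 (median 75) (log2 fold change -1.25 ± 0.25, adjusted p = 0.00785). Both were without overlap. Of 21 glucocorticoid-responsive genes 4 were called lower (Klf15, Cebpd, Errfi1 and Per1), with a median of -0.67. The share called lower was 19.05%, against 8.03% over all genes tested. These calls were not particular to this list. Klf15 and Cebpd were also counted among the genes of adipocyte differentiation and identity, and Per1 in a list of circadian clock genes. Without the Xist-positive libraries the median was 0.01 and Errfi1 was not among the 4 called lower (adjusted p = 0.099). Without mouse W18F23 2 were called lower. The list summed to 9445 and 6026 CPM in the 2 Xist-positive libraries, 1942 to 2580 CPM in the other young ones and 2274 to 4533 CPM at 20 months. Time of day at sampling is not given in the labels.

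**Figure D4:**
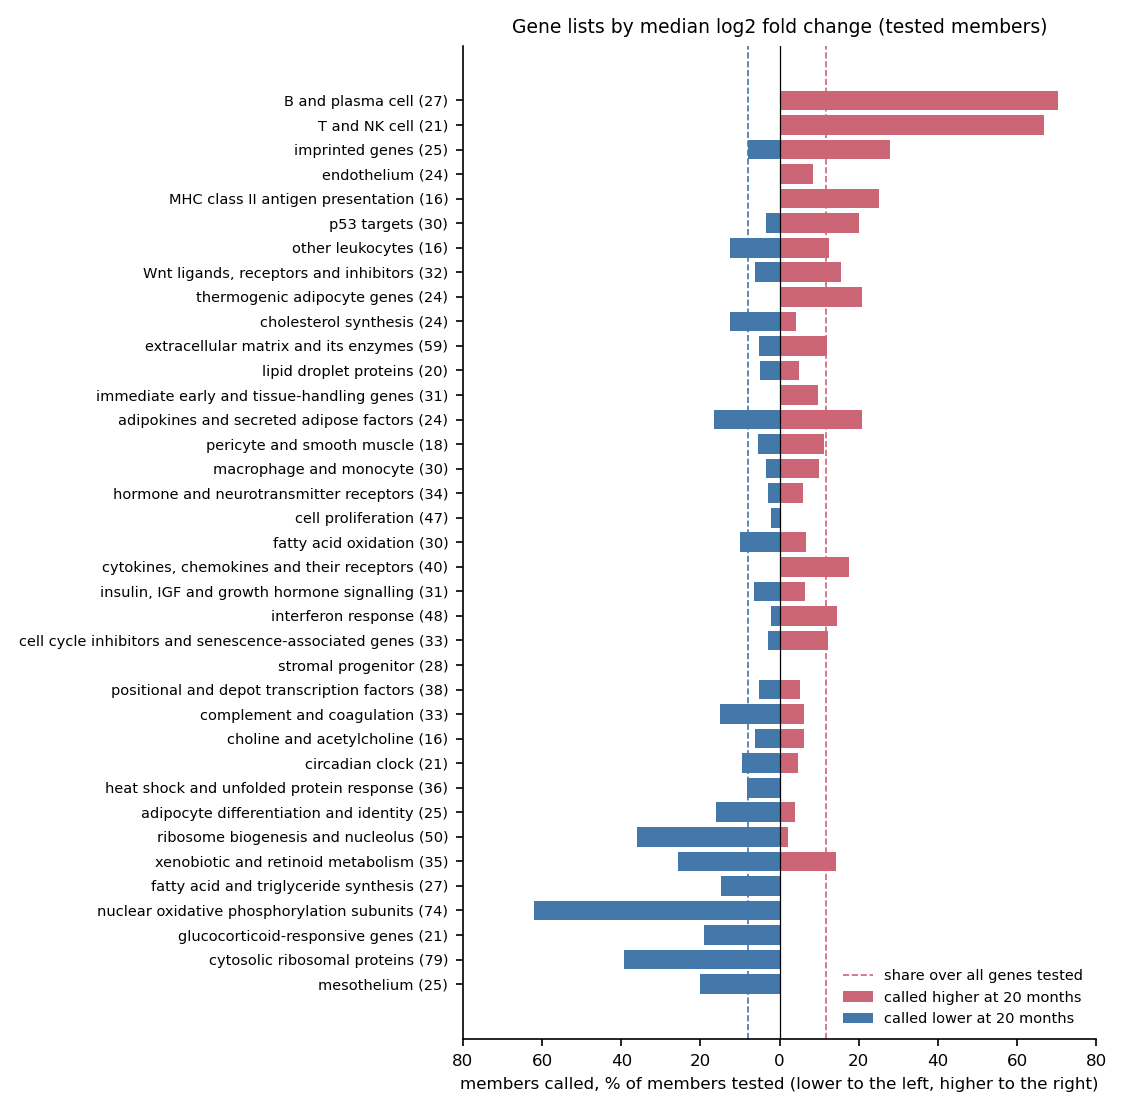
For 37 lists with at least 15 tested members, the share of tested members called higher (red, right) and lower (blue, left) at 20 months, with the number tested in brackets. Dashed lines are the shares over all genes tested, 11.6% and 8.03%. The lymphocyte lists lie far to the right, and oxidative phosphorylation and ribosomal proteins far to the left. Shares are without length adjustment. Scarce genes could enter the tested members through the old libraries alone.

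Ageing in MycKO adipose tissue was set beside ageing in WT, and the 2 age effects had no sample in common. The MycKO calls came from a fit of all 22 adipose libraries, unlike the WT calls, so its spread was estimated with the WT libraries too. In that fit WT had 1545 calls in place of 2650, so the numbers of calls and the shares in common rest on unlike fits. The question was whether the age effect differed by genotype. In MycKO adipose tissue 1912 of 13505 genes were called (14.2%), and 1025 were called in both genotypes, 38.7% of the WT calls and 53.6% of the KO calls, all in the same direction. Of the WT calls 97.4% had the same sign in MycKO, against 79.3% of all genes tested. The age by genotype test called 0 genes (0%) in limma and 0 with edgeR. At an unadjusted p of 0.05 limma had 392 genes and edgeR had 516. Both are fewer than the share of 0.05 of genes that passes where no gene differs. The 0 calls do not show that ageing is the same in both genotypes. What size of difference the test could miss is not given here. Slc5a7 rose by 3.98 and Sfrp5 by 4.51 in MycKO. Cfd fell by 1.94, and its length-adjusted value in WT was -2.41. Young MycKO libraries also held epididymis markers, in 3 of them at 1220 to 8331 CPM, and 2 of the 6 young MycKO libraries and no old one were Xist-positive (426 and 276 CPM), so the sex imbalance between the ages was present in both genotypes. The part of either in the shared age effect was not tested.

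The age effect was then compared with that in WT liver and muscle. The test of the difference in age effect called 868 of 13505 genes between adipose tissue and liver (6.43%) and 2350 between adipose tissue and muscle (17.4%). Of the 2650 adipose calls, 605 differed from liver and 1202 from muscle. Slc5a7 had a log2 fold change of 0.00 in liver and 0.19 in muscle (adjusted p of the difference 1.11e-12 and 1.53e-12). Its difference from liver, 5.248, was the adipose effect itself. Genes were chosen for testing by their adipose levels, and levels in liver and muscle are not given. A gene scarcely read in those tissues would also show a difference of this kind. Sfrp5 had -0.43 and -0.18 (0.00124 and 0.00168). Per1 fell in liver (-1.73) and muscle (-1.34) as in adipose tissue (-1.25), and the differences did not pass (0.629 and 0.921). Of the adipose calls, 7.89% were also called in liver and 13.3% in muscle. The liver and muscle calls came from a fit of all WT libraries, unlike the adipose calls.

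**Figure D5:**
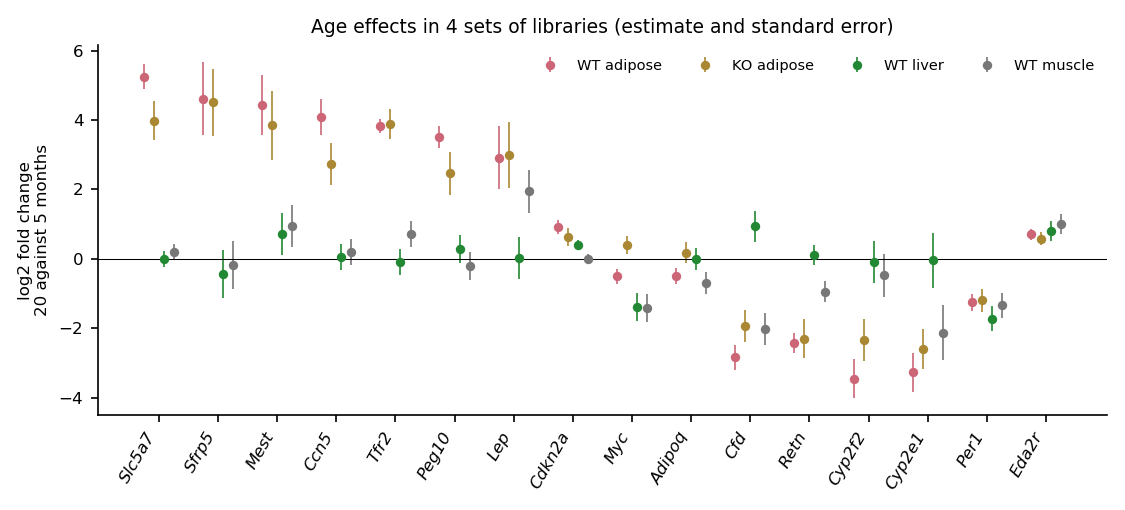
Log2 fold change of 20 against 5 months, with its standard error, for 16 genes in WT adipose tissue, MycKO adipose tissue, WT liver and WT muscle. Slc5a7 is raised in both adipose sets (5.25 and 3.98) and near 0 in liver and muscle. Levels in liver and muscle are not shown, and a gene scarcely read there would also lie near 0.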

How the data were processed

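The authors deposited 1 table of 36333 gene entries with a signal headed CPM, made with CLC Genomics per the file headers; its values are whole multiples of 1 read (100% within 0.01 reads), so reads were recovered. GRCm38.p6 and mm10 are builds named in the submitters' processing notes; aligner and use of strand in counting are not given in the sources used here. Entries without a symbol (996) held 0.155% of reads. Symbols, coordinates and promoter windows are from RefSeq (GRCm38.p6), and transcript lengths from GENCODE.

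The test was limma (3.58.1, in R 4.3.3) with an intensity trend on log2(CPM + 1), for genes above 1 CPM in 5 or more of the 11 libraries, with Benjamini-Hochberg adjusted p-values and a threshold of 0.05; this scale understates changes of low genes. Age by genotype and age by tissue were interaction terms. edgeR 4.0.16 and DESeq2 1.42.0 were run on recovered reads. The script was tested on simulated data. No pair of libraries agreed within sampling noise. Length adjustment removed a lowess trend (span 0.3) of each library on log2 transcript length and was added after seeing the data.

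Members, lists and tests were chosen with earlier results of these data known. The rule for named genes took 9 genes by name, the 15 largest rises and 15 largest falls among called genes of at least 5 CPM without overlap, and per list the 4 called genes with the largest change and the 2 most abundant. It named 216 genes, and values were computed for 101 of them; some items are not reported here. Numbers in the codes recur between tissues at 5 months and not between ages, and the labels do not say that they mark the same mouse; the consensus correlation of samples sharing a number was 0.114.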

Additional observations from a re-analysis of the deposited data

Results flagged for a closer look

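In 234 groups of 5 or 6 libraries (each described gene and each cell type list at each age), 15 had 1 library far from the rest, where chance alone gives about 1 in 20. At 20 months, mouse W18F22 stood apart in Ms4a1 (36.68 CPM, others 6.08 to 10.4), Ciita (37.53 CPM, others 13.8 to 16.8) and Adipoq (1072 CPM, others 1477 to 1636). Mouse W18F24 stood apart in Dgat1 (126.5 CPM, others 51.4 to 62.7), Hmgcs1 (349 CPM, others 159 to 195) and Cd14 (11.32 CPM, others 20.8 to 23.4). Mouse W18F25 was low in Lctl (62.61 CPM, others 73.5 to 78.03), and mouse W18F21 was high in Rpl38 (63.36 CPM, others 46.3 to 49.6).

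At 5 months, mouse W5F5299, whose library held epididymis markers, was low in Retn (537.3 CPM, others 969 to 1304) and Atp5k (17.94 CPM, others 49.6 to 57.6) and high in Pax5 (1.473 CPM, others 0.141 to 0.33). Mouse W5F5006 was low in Cyp2e1 (439.6 CPM, others 2043 to 4859), mouse W5F5005 was high in Agt (447.6 CPM, others 225 to 281) and mouse W5F5041 was high in Per1 (135.3 CPM, others 61.8 to 78.3). Mouse W5F5277 had the lowest sum of other leukocyte markers (90.21 CPM, others 103 to 111).

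The age effect differed between WT adipose tissue and another WT tissue, by an interaction term in limma, for genes set by name. The adipose effect minus that of liver was 5.248 for Slc5a7, 5.046 for Sfrp5, 3.703 for Mest, 2.884 for Lep and -3.357 for Cyp2f2 on the log2 scale. The adipose effect minus that of muscle was 5.062 for Slc5a7, 4.794 for Sfrp5, 3.475 for Mest, 0.907 for Cdkn2a and -2.974 for Cyp2f2. Over all genes, 868 differed from liver and 2350 from muscle. The genes tested were chosen by adipose levels, and their levels in liver and muscle are not given.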

How the results depend on the processing

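The 2650 calls (1566 higher, 1084 lower) became 3979 with DESeq2 (2224 lower), 1545 with all 22 adipose libraries in the fit (497 lower), 1475 with a sex covariate (929 higher, 546 lower), 1246 without the Xist-positive libraries (797 higher, 449 lower) and 4130 without the epididymis-positive libraries (1965 lower). Without both kinds of library, which leaves only mice W5F5006 and W5F5277 at 5 months, 1879 genes were lower. With no filter on low values 712 were lower. Length adjustment gave 1620 calls (840 higher), against 2537 in an unadjusted fit of the genes with a length. Without the Xist-positive libraries length adjustment gave 860 (469 higher, 391 lower). These settings were chosen after seeing the data. Leaving out 1 library gave 1182 (mouse W18F25) to 4021 calls (mouse W5F5299), 784 to 2101 higher and 376 to 1920 lower; the count moved by over 1.5 times also without mouse W5F5041 (1589), W5F5042 (1744), W18F21 (1731), W18F22 (1193), W18F23 (1185) and W18F24 (1567). The cause was not tested. The age by genotype count stayed at 0 in each setting run. The difference from liver (868) was 532 with a pseudocount of 0.1, 563 with edgeR and 617 to 1331 with 1 library left out, and that from muscle (2350) was 1336 without the Xist-positive libraries and 1718 to 3234 with 1 left out. With the number in the codes as a replicate block, these counts were 1009 and 2563. No pairing between ages was possible, since no number occurs at both.

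Of 101 genes described, 101 kept their call and direction with a pseudocount of 0.1, TMM scaling or rescaling to equal sums, 97 with edgeR, 85 without the Xist-positive libraries and 69 without these and the epididymis-positive ones (27 lost their call and 3 changed sign). On length-adjusted values without the Xist-positive libraries 71 of 99 did. The genes that changed sign had not passed the test. Cd74 was at -0.1318 with the sex covariate and without the Xist-positive libraries, -0.02233 without the epididymis-positive ones, -0.5437 without both, and -0.06491 to 0.2816 with 1 library left out. Without both kinds Dcn was at 0.2954 and Sparc at -0.2539. Scd1 was at -0.1002 on length-adjusted values without the Xist-positive libraries, and Lyz2 ranged from -0.06123 to 0.2104 with 1 left out.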
